A study of Mus musculus with 102 samples.

Results

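The genes described here encode 10 ion channels of spinal microglia: the potassium channels Kcnk13, Kcnk6, Kcnk12, Kcnj2, Kcna3 and Kcnn4, the proton channel Hvcn1, and the TRP (transient receptor potential) channels Trpv2, Trpv4 and Trpm2. They were chosen by symbol in the authors' normalized table, where all 10 were among 18856 genes, and were matched by gene identifier to the raw counts of 53715 genes. All 10 passed the filter on low counts, as did 20461 genes in all. Microglia were collected by flow cytometry from lumbar cords of ABC-imKO mice (Abca1fl/fl Abcg1fl/fl Cx3cr1-CreERT2) and of wild type (WT) mice. In ABC-imKO mice the cholesterol exporters ABCA1 and ABCG1 can be deleted by a Cre recombinase that the Cx3cr1 promoter drives and tamoxifen activates. That promoter is also active in other mononuclear phagocytes, and the labels mention no Cre-bearing control. Each genotype was studied in 3 states. In the cisplatin AIBP groups, mice had cisplatin on days 1 and 3 and intrathecal AIBP, an apolipoprotein A-I binding protein, on day 7. In the cisplatin saline groups, saline took the place of AIBP. Naive mice had neither cisplatin nor an intrathecal injection, so cisplatin saline against naive also compares injected with uninjected mice. There were 3 numbered samples in ABC-imKO cisplatin AIBP, ABC-imKO cisplatin saline, ABC-imKO naive, WT cisplatin saline and WT naive, and 2 (7 and 9) in WT cisplatin AIBP. The labels give no age, and leave it unstated whether 1 mouse or several went into a numbered sample. The p-values therefore reflect only how these samples vary, which may be technical.

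Microglia hold their membrane potential with a small set of potassium channels. THIK-1, the tandem-pore channel encoded by Kcnk13, carries the resting potassium current of rodent microglia, and the loss of potassium through such channels is a known trigger of the NLRP3 inflammasome and of interleukin-1β release. The proton channel removes the charge and acid that NADPH oxidase leaves behind, and the TRP channels admit calcium in response to osmotic, mechanical, thermal or oxidative signals.

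The 250 bases upstream of the annotated start are shown for the 3 genes that passed a test below (Kcnk12, Kcnj2 and Trpv4) and for Kcnk13, the closest relative of Kcnk12. They come from RefSeq on build GRCm38.p6, which holds entries for 8 of the 10 genes, and are written 5′ to 3′ on the gene's strand. The windows are Kcnk12 at chr17:87797995-87798244 (minus strand), Kcnj2 at chr11:111065914-111066163 (plus strand), Trpv4 at chr5:114658422-114658671 (minus strand) and Kcnk13 at chr12:99964249-99964498 (plus strand). Capitals mark matches to 5 motifs searched on both strands: the GC box GGGCGG, the ETS core GGAAGT, the AP-1 site TGANTCA, the E-box CACGTG and the TATA box TATAAA.
Kcnk12: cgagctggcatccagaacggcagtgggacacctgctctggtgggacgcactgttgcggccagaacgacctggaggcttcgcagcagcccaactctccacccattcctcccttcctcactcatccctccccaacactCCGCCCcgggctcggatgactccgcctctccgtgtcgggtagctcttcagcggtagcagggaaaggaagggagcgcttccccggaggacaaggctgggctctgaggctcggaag
Kcnj2: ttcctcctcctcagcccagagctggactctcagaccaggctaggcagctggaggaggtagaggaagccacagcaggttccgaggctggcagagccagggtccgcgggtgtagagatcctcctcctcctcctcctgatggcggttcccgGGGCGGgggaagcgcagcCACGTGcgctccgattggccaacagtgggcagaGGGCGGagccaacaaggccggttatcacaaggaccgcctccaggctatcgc
Trpv4: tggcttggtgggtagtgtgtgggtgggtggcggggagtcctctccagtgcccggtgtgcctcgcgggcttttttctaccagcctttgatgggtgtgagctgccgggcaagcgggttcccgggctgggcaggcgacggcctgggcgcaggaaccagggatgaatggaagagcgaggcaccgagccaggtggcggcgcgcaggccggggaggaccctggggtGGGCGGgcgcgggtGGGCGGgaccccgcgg
Kcnk13: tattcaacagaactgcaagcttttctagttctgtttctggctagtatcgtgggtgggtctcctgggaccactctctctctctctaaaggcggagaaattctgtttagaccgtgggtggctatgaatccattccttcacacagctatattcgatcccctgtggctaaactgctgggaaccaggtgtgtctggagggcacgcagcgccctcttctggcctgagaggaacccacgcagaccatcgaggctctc
The GC box was matched 1 time in the Kcnk12 window, 2 times in Kcnj2 and 2 times in Trpv4, with no match in Kcnk13. In windows not shown, of genes that did not pass, it was matched 2 times in Kcna3, 1 time in Kcnn4 and 1 time in Trpm2. Trpv2 held no match. The GC box occurs in 32.75% of 32841 RefSeq windows of this length. The E-box was matched 1 time in Kcnj2 and 1 time in Kcnn4, and occurs in 6.02% of windows. The other motifs, which were not matched in the 4 windows shown, occur in 19.74% (ETS core), 6.75% (AP-1) and 12.37% (TATA) of windows. The windows of Trpv4, Kcnk12 and Kcnj2 held 22, 16 and 14 CpG dinucleotides and that of Kcnk13 held 8, against a median of 6 over all windows. Kcna3, which did not pass, held 31, Trpm2 held 10 and Kcnn4 held 6. A match is a description of the letters, not a bound site.

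Depth per numbered sample ran from 45.1 to 76.6 M counts (M for mega), with a median of 63.1 M. Levels are edgeR's CPM, counts scaled by the TMM-adjusted library size. The targeted genes were not lost from gene-level counts: Abca1 lay at 32.6 to 105 CPM in ABC-imKO samples, against 41.1 to 114 CPM in WT, and Abcg1 at 25.6 to 68.4 CPM, against 36.2 to 160 CPM. In naive mice Abcg1 lay at 41.6 to 66.4 CPM in ABC-imKO, against 91.7 to 160 CPM in WT, without overlap. In both cisplatin states the genotypes overlapped for Abcg1, and Abca1 overlapped in naive mice. Exons outside the floxed part add to these counts, so they do not measure deletion. Cx3cr1 averaged 2235 CPM in ABC-imKO cisplatin saline and 4186 CPM in ABC-imKO naive, but 5959 CPM in the samples labelled ABC-imKO cisplatin AIBP, against 6081 to 9998 CPM in the WT groups. Those 3 samples, at 5250 to 7078 CPM, stand apart from the other ABC-imKO samples and overlap WT cisplatin saline (5531 to 7103 CPM). They lie below WT cisplatin AIBP, at 7297 to 7902 CPM. Their Cx3cr1 level puts the genotype label of these samples in doubt without settling it. Whether the label is right was not tested, so each comparison that uses them holds only as far as the label does, and they are named by it. Microglial markers (10 of 10 tested) were abundant in every sample, at a summed 17010 to 54250 CPM. Monocyte markers (8 of 8 tested) summed to 797.9 to 1261 CPM in ABC-imKO cisplatin saline, against 18.8 to 36.3 CPM in ABC-imKO naive, and to 247.3 to 1153 CPM in WT cisplatin saline, against 4.51 to 78.3 CPM in WT naive. Fn1, which other cells also express, made up 816.6 of the mean 966.5 CPM in ABC-imKO cisplatin saline and was the 1 marker of the 8 that passed there. Ccr2, the defining monocyte receptor, reached only 6.75 CPM in ABC-imKO cisplatin saline but 95.3 CPM in WT cisplatin saline, where samples 5 and 6 stand apart. Chil3, another of the 8, went the other way, at 76.9 to 115.8 CPM in ABC-imKO cisplatin saline. Its highest sample held 4.89 CPM in ABC-imKO naive and 49.4 CPM in WT cisplatin saline. In such bulk samples, fewer cells of a type and less RNA per cell cannot be told apart.

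In WT naive microglia the 10 channels spanned a wide range of levels. Per kilobase of exon, Kcnk13 stood highest at 75.0 ± 17.6 CPM per kb (SD, n = 3), and all 3 of its samples lay above those of the next gene, Trpv2, at 29.4 ± 3.8. TRPV2 is a calcium-permeable cation channel of macrophages. Next came Kcnk12 at 19.7 ± 9.3, Kcnk6 at 17.4 ± 0.6 and Hvcn1 at 16.4 ± 0.5 CPM per kb. These 3 overlapped their neighbours. A gap without overlap then separated Hvcn1 from the low group: Trpv4 at 3.80 ± 1.62, Kcnj2 at 3.24 ± 1.11, Kcna3 at 3.24 ± 1.61, Kcnn4 at 2.81 ± 1.27 and Trpm2 at 1.94 ± 0.10 CPM per kb. Neighbours in the low group all overlapped. Of the other potassium pore and TRP genes listed, only Kcnd1 (18.3 CPM per kb), the mucolipin Mcoln1 (18.3) and Trpm7 (9.15) had WT naive levels above that of Trpv4.

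**Figure D1:**
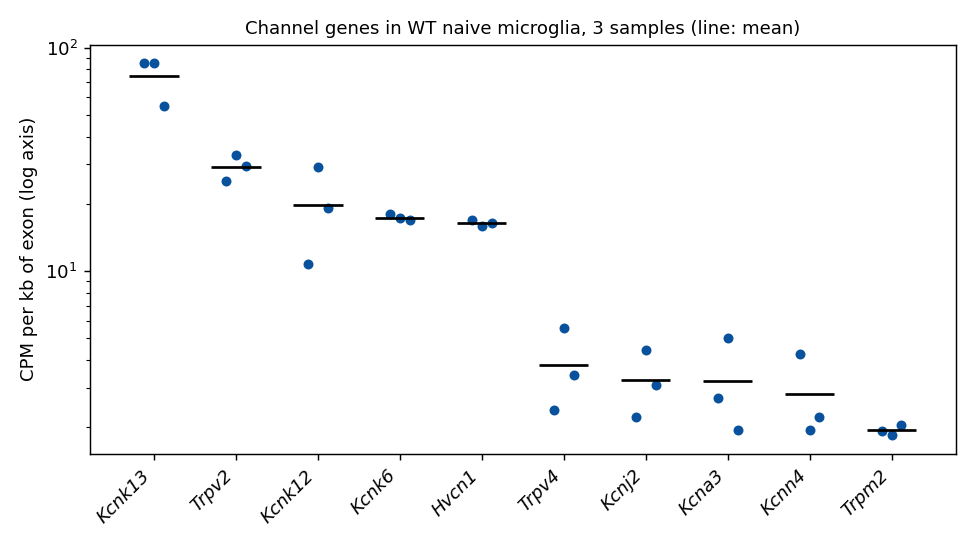
Level of each channel gene in the 3 WT naive samples, in CPM per kilobase of exon on a log axis (points are samples, lines are means). Kcnk13 stands above the rest, and a gap separates Kcnk13, Trpv2, Kcnk12, Kcnk6 and Hvcn1 from the other 5 genes.

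The genes also differed in how far they varied over all 17 samples. Kcnk13, Kcnk6, Trpv2 and Hvcn1 differed by no more than 2.86-fold between their lowest and highest sample. Kcna3, Trpm2 and Kcnn4 differed by 6.70 to 7.81-fold. Kcnj2 differed by 19.5-fold, Trpv4 by 21.1-fold and Kcnk12 by 34.8-fold. Such a range holds spread within groups as well as between them. The highest Kcnj2 value, 42 CPM, was that of ABC-imKO naive 1, where ABC-imKO naive 2 and 3 held 9.28 and 7.49 CPM.

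**Figure D2:**
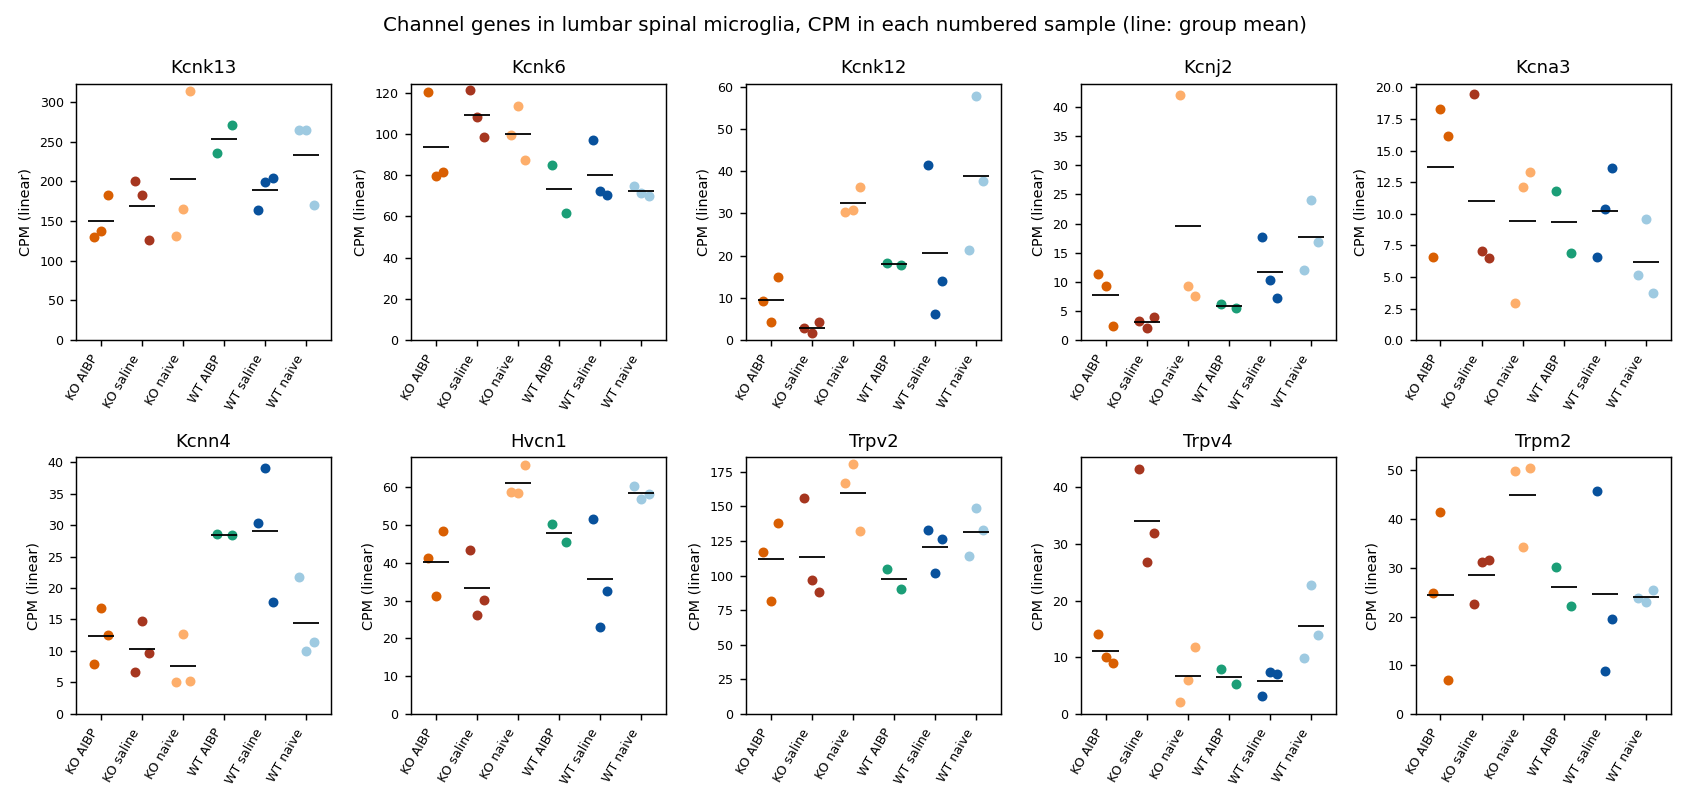
CPM (linear axis from 0) of each channel gene in every numbered sample, with KO for ABC-imKO, AIBP for cisplatin AIBP and saline for cisplatin saline, and lines at group means. Kcnk12 and Kcnj2 are lowest, and Trpv4 highest, in ABC-imKO cisplatin saline.

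After cisplatin and saline, 3 of the 10 channels changed against naive in ABC-imKO microglia. Kcnk12 and Kcnj2 fell and Trpv4 rose (edgeR's quasi-likelihood test, Benjamini-Hochberg adjusted p under 0.05 over all genes). Of all genes 4.41% passed, 1.99% lower and 2.42% higher. At an unadjusted p under 0.05 there were 4 members (18.1% of all genes). In 5 of the 10 genes the cisplatin saline and naive samples did not overlap, against 23.5% of all genes. In WT microglia none of the 10 passed, where 2.91% of all genes did. There, 3 members had an unadjusted p under 0.05 (17.6% of all genes did), none was called by DESeq2 or limma-voom, and 2 did not overlap (22.8% of all genes). The median log2 fold change of the 10 was -0.38 in ABC-imKO and -0.22 in WT, beside -0.04 and -0.01 over all genes.

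Among the tandem-pore channels, Kcnk12 (chromosome 17, 87745801 to 87797994, GRCm38, as are all positions here) encodes THIK-2, a relative of THIK-1 that passes little current by itself and can join THIK-1 in one channel. Kcnk12 stood at 2.80, 1.67 and 4.38 CPM in ABC-imKO cisplatin saline samples 4, 5 and 6, against 30.4, 30.7 and 36.1 CPM in ABC-imKO naive samples 1, 2 and 3. All 3 treated samples lay far below all 3 naive ones. The log2 fold change was -3.46 ± 0.66 (SE), an 11-fold difference, with an adjusted p of 0.00835. Without ABC-imKO cisplatin saline 5 it was -3.17 with an adjusted p of 0.0516. In WT the cisplatin saline samples held 41.3, 6.19 and 14.1 CPM, against 21.3, 57.9 and 37.6 CPM in naive samples. These WT groups overlapped, since WT cisplatin saline 4 lay above WT naive 1 and 3, and the difference of -0.92 ± 0.61 did not pass (adjusted p = 0.436). The 2 low WT samples are 5 and 6, the ones with Ccr2 transcripts.

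Marker values also differed between ABC-imKO cisplatin saline and ABC-imKO naive. Summed microglial markers stood at 17010 to 19370 CPM in ABC-imKO cisplatin saline, against 36900 to 47360 CPM in ABC-imKO naive, and 9 of the 10 fell in the same test. On the log2 scale P2ry12 fell by 2.01, Gpr34 by 2.03 and Tmem119 by 1.42. Dissociation and immediate early genes (15 of 15 tested) summed to 3660 to 14260 CPM, against 8553 to 39170 CPM, and 4 of the 15 fell, among them the heat shock genes Hspa1b (-3.89) and Hspa1a (-3.42). In WT, 3 of the 10 microglial markers fell, where Kcnk12 did not pass. WT cisplatin saline 4, 5 and 6 held 32870, 26260 and 33830 CPM of summed microglial markers, with Kcnk12 at 41.3, 6.19 and 14.1 CPM. Whether the monocyte transcripts, the immediate early genes or the drop in microglial markers have a part in the channel values was not tested.

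Kcnk13 (chromosome 12, 99964499 to 100062682) itself did not pass. It stood at 200, 182 and 126 CPM in ABC-imKO cisplatin saline, against 131, 165 and 314 CPM in ABC-imKO naive, and at 164, 200 and 204 CPM in WT cisplatin saline, against 265, 265 and 170 CPM in WT naive. Both pairs of groups overlapped, and the log2 fold changes were -0.26 ± 0.29 in ABC-imKO and -0.30 ± 0.29 in WT (adjusted p = 0.691 and 0.627). The 95% interval in ABC-imKO ran from -0.83 to 0.31. Whether Kcnk12 and Kcnk13 differed from each other in this response was not tested. Kcnk6 (chromosome 7, 29221926 to 29232515), which encodes TWIK-2, a potassium efflux channel of macrophages, stood at 121, 108 and 98.5 CPM in ABC-imKO cisplatin saline, against 99.6, 114 and 87.3 CPM in ABC-imKO naive. Those groups overlapped (0.13 ± 0.20, adjusted p = 0.808), as did the WT groups (0.15 ± 0.20, adjusted p = 0.751).

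Kcnj2 (chromosome 11, 111066164 to 111076821) encodes an inward rectifier that holds the resting potential near the potassium equilibrium. It stood at 3.31, 2.16 and 3.96 CPM in ABC-imKO cisplatin saline, against 42, 9.28 and 7.49 CPM in ABC-imKO naive. The groups did not overlap, but ABC-imKO naive 1 lay far above the other two naive samples. The log2 fold change was -2.64 ± 0.69 with an adjusted p of 0.0441. Without ABC-imKO naive 1 it was -1.41 with an adjusted p of 0.264, and the call was also lost without ABC-imKO naive 2 (adjusted p = 0.053) or without ABC-imKO cisplatin saline 4 (0.126), 5 (0.165) or 6 (0.0845), where the fold change was -2.98 to -2.43. In WT, Kcnj2 stood at 17.6, 10.4 and 7.19 CPM in cisplatin saline, against 12.1, 24.1 and 16.8 CPM in naive samples, which overlapped (-0.59 ± 0.65, adjusted p = 0.686).

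The voltage-gated channel gene Kcna3 (chromosome 3, 107036169 to 107038070) and the calcium-activated channel gene Kcnn4 (chromosome 7, 24370263 to 24386690) encode outward potassium channels tied in microglia and lymphocytes to activation and calcium entry. Kcna3 stood at 19.5, 7.06 and 6.53 CPM in ABC-imKO cisplatin saline, against 2.91, 12.2 and 13.3 CPM in ABC-imKO naive, a scattered pattern with no difference past the test (0.22 ± 0.62, adjusted p = 0.911). In WT it stood at 6.61, 10.4 and 13.6 CPM in cisplatin saline, against 5.15, 9.59 and 3.71 CPM in naive samples, again overlapping. Kcnn4 stood at 6.65, 14.8 and 9.60 CPM in ABC-imKO cisplatin saline, against 5.0, 12.7 and 5.22 CPM in ABC-imKO naive (0.44 ± 0.47, adjusted p = 0.682). In WT its difference was 1.01 ± 0.47, with 30.3, 39.1 and 17.8 CPM in cisplatin saline, against 21.8, 9.93 and 11.4 CPM in naive samples. The lowest WT treated sample lay below the highest naive one, and the difference did not pass (adjusted p = 0.279).

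Hvcn1 (chromosome 5, 122206804 to 122242297), the voltage-gated proton channel, was lower after cisplatin and saline in both genotypes without passing in either. It stood at 43.3, 26.3 and 30.2 CPM in ABC-imKO cisplatin saline, against 58.9, 58.4 and 65.8 CPM in ABC-imKO naive (-0.88 ± 0.27, adjusted p = 0.0921). In WT it stood at 51.7, 23.0 and 32.5 CPM in cisplatin saline, against 60.5, 56.8 and 58.4 CPM in naive samples (-0.71 ± 0.27, adjusted p = 0.199). Neither pair of groups overlapped. In ABC-imKO the fall was called by DESeq2 (adjusted p = 0.0177) and by limma-voom (0.0431). The WT value was -1.07 with an adjusted p of 0.033 without sample 4. It was -0.13 without samples 5 and 6, which leaves sample 4 alone after cisplatin and saline, assumed to vary like the remaining groups. Exons of Hvcn1 overlap those of Tctn1 on the other strand over 1574 bases, which is 44.2% of its exon length, and the strand setting of the counting is not given in the sources used here. Hvcn1 counts may therefore hold Tctn1 reads. Tctn1 was the lower gene in every group, averaging 5.76 to 18.5 CPM, and its difference between cisplatin saline and naive was 1.24 ± 0.47 in ABC-imKO (adjusted p = 0.17) and -0.91 ± 0.46 in WT (adjusted p = 0.321). Its sign was thus opposite to that of Hvcn1 in ABC-imKO and the same in WT, and the part of Tctn1 reads in the Hvcn1 values was not tested.

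Among the TRP channels, Trpv4 (chromosome 5, 114622152 to 114658421) encodes a calcium channel opened by cell swelling, warmth and lipid mediators. It stood at 43.3, 26.9 and 32 CPM in ABC-imKO cisplatin saline, against 2.05, 5.99 and 11.8 CPM in ABC-imKO naive. Each treated sample held more than any naive sample. The log2 fold change was 2.36 ± 0.56, a 5.15-fold difference, with an adjusted p of 0.0262. The call was lost without ABC-imKO naive 1 (adjusted p = 0.0691) or 2 (0.11) and without ABC-imKO cisplatin saline 4 (0.0806) or 5 (0.0554), with fold changes of 1.94 to 2.51. In WT the sign was the other way: 3.10, 7.38 and 7.11 CPM in cisplatin saline, against 9.78, 22.8 and 14 CPM in naive samples. These groups did not overlap either, but the difference of -1.40 ± 0.54 did not pass (adjusted p = 0.206).

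Trpv4 is also known from endothelial cells and astrocytes. Summed endothelial markers (5 of 6 tested) stood at 0.691 to 11.4 CPM in ABC-imKO cisplatin saline, against 16 to 44.8 CPM in ABC-imKO naive, with Cldn5, the defining tight-junction gene, at 0 in all 3 treated samples and at most 0.0334 CPM in the naive ones. Summed astrocyte markers (6 of 6 tested) stood at 100.4 to 143.4 CPM, against 195.9 to 265.0 CPM in naive samples. Slc1a3 made up most of this sum, at 96.8 of the mean 119.7 CPM, against 176.0 of 220.8 CPM in naive samples. Gfap averaged 17.6 CPM, against 31.6 CPM, but Aqp4 averaged 2.02 CPM, against 1.08 CPM. Monocyte markers ran high in the same treated samples, as given above. The part of any of these cell types in the Trpv4 value was not tested.

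Trpv2 (chromosome 11, 62574486 to 62600515) did not pass, nor did Trpm2 (chromosome 10, 77907722 to 77970563), whose channel is opened by ADP-ribose under oxidative stress. Trpv2 stood at 156, 96.6 and 88.0 CPM in ABC-imKO cisplatin saline, against 167, 180 and 132 CPM in ABC-imKO naive, where 1 treated sample lay within the naive range (-0.49 ± 0.24, adjusted p = 0.296). In WT it differed by -0.13 ± 0.24 (adjusted p = 0.834). Trpm2 stood at 22.7, 31.3 and 31.5 CPM in ABC-imKO cisplatin saline, against 49.8, 34.3 and 50.5 CPM in ABC-imKO naive, without overlap but not past the test (-0.66 ± 0.55, adjusted p = 0.579). In WT cisplatin saline it scattered most, at 45.7, 8.84 and 19.5 CPM, around the 22.9 to 25.5 CPM of WT naive samples.

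**Figure D3:**
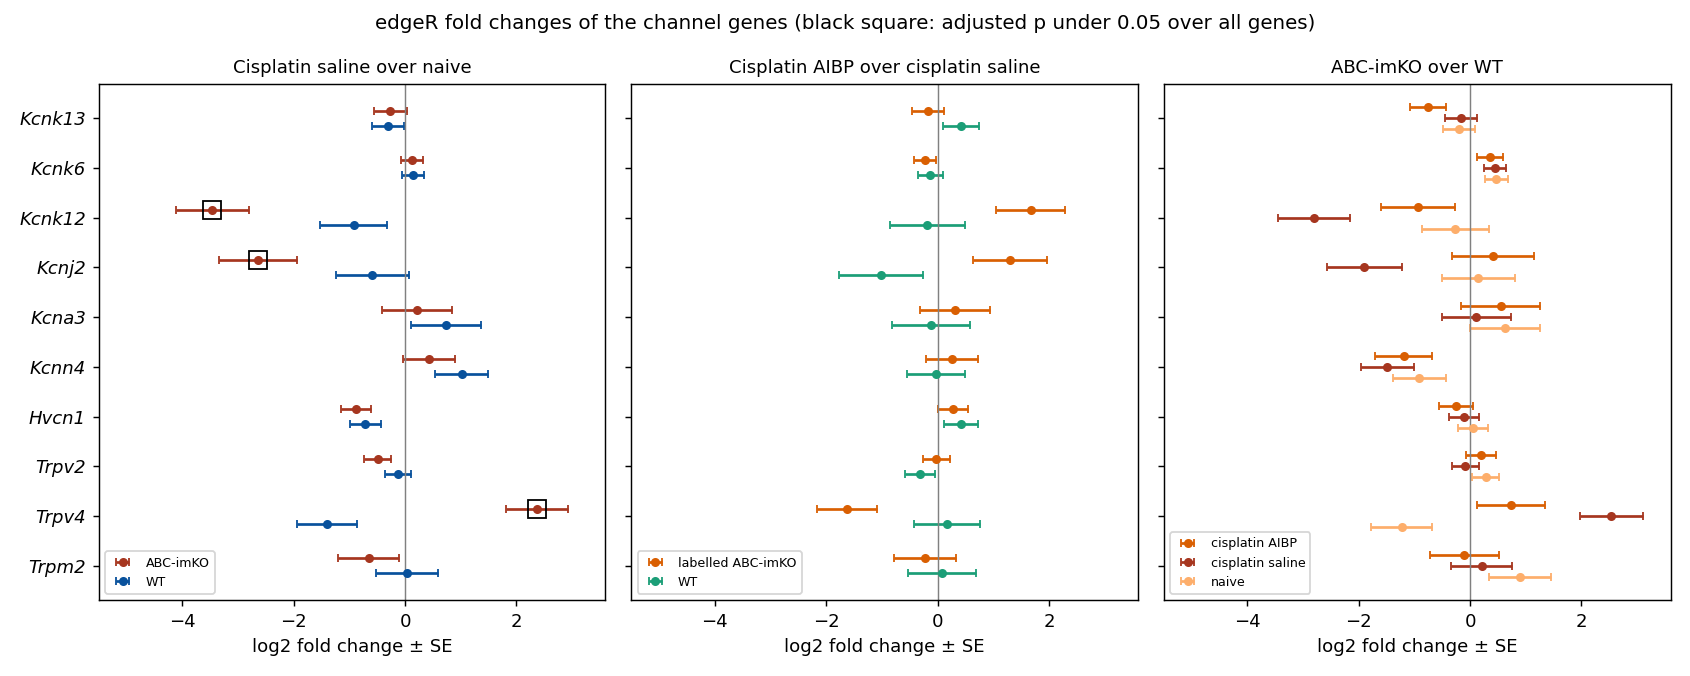
Log2 fold changes (points) with their SE (bars) of the 10 channel genes from edgeR, for cisplatin saline over naive, cisplatin AIBP over cisplatin saline, and ABC-imKO over WT; squares mark an adjusted p under 0.05. Squares stand only at Kcnk12, Kcnj2 and Trpv4 for cisplatin saline over naive in ABC-imKO.

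Each numbered sample was sequenced as 3 technical libraries, which show how evenly a sample's value was carried. With group and technical number fitted, the correlation of libraries within a sample was only 0.0672 (limma's duplicateCorrelation). Libraries of 1 sample were thus little more alike than libraries of different samples in a group. Trpv4 lay at 13.9 to 64.2 CPM (median 27.5) in the 9 libraries of ABC-imKO cisplatin saline, against 0 to 19.5 CPM (median 4.91) in the 9 of ABC-imKO naive, 2 of which held no count. Libraries of these groups overlapped although the summed samples did not. Kcnk12 lay at 0.0389 to 7.31 CPM (median 1.65) in ABC-imKO cisplatin saline, against 20.4 to 40.2 CPM (median 32.3) in ABC-imKO naive, so no library overlapped. Kcnj2 lay at 0.0351 to 8.04 CPM (median 3.89), against 5.10 to 86.0 CPM (median 10.5), and its highest naive libraries belong to ABC-imKO naive 1. Technical libraries of a sample are not independent samples, and the tests above were made on their sums.

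**Figure D4:**
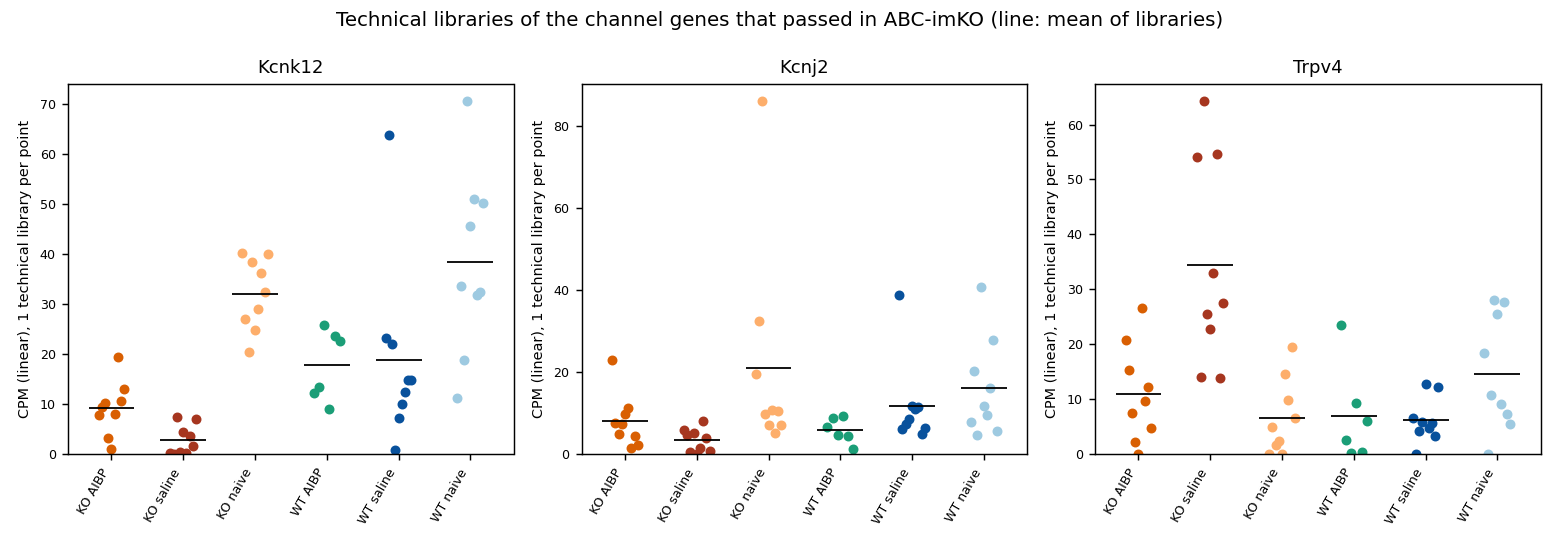
CPM (linear axis from 0) of Kcnk12, Kcnj2 and Trpv4 in each technical library, with 9 libraries a group (6 in WT cisplatin AIBP), KO for ABC-imKO and lines at the mean of libraries. Kcnk12 libraries of ABC-imKO cisplatin saline, up to 7.31 CPM, all lie below those of ABC-imKO naive, from 20.4 CPM.

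AIBP against saline after cisplatin moved none of the 10 channels past the test in either genotype, where 0.00977% of all genes passed in ABC-imKO and 0.0% in WT. Neither DESeq2 nor limma-voom called a member. At an unadjusted p under 0.05 there were 2 members in the samples labelled ABC-imKO and 0 in WT, against 6.62% and 3.71% of all genes. The 2 were Trpv4 and Kcnk12, and both differed in the direction opposite to that of cisplatin saline over naive; these comparisons share the cisplatin saline samples. Trpv4 stood at 14.1, 10.1 and 8.94 CPM in the samples labelled ABC-imKO cisplatin AIBP, against 43.3, 26.9 and 32 CPM in ABC-imKO cisplatin saline. The groups did not overlap, the one member of which this was true (8.6% of all genes), and the log2 difference was -1.63 ± 0.54 (adjusted p = 0.706). Kcnk12 stood at 9.21, 4.19 and 14.9 CPM, against 2.80, 1.67 and 4.38 CPM, and the groups overlapped by 1 sample (1.68 ± 0.62, adjusted p = 0.706). In WT, Trpv4 differed by 0.17 ± 0.59 and Kcnk12 by -0.19 ± 0.68. Kcnk13 (236 and 271 CPM with AIBP, against 164, 200 and 204 CPM with saline) and Kcnj2 (6.21 and 5.43 CPM, against 17.6, 10.4 and 7.19 CPM) were the 2 members whose WT groups did not overlap, against 18.2% of all genes, with adjusted p of 1.0 and 0.998. The genotype difference in the AIBP response was past the test for no member, where 0.0% of all genes passed. DESeq2 and limma-voom called none, and 2 had an unadjusted p under 0.05 (6.28% of all genes), Kcnj2 and Trpv4.

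Against naive, cisplatin with AIBP also moved no member past the test, where 2.68% of all genes passed in ABC-imKO and 1.25% in WT. DESeq2 called 1 member in ABC-imKO, Kcnk12, and none in WT, and limma-voom called none. Those shares are from the main edgeR fit, with 549 genes called in ABC-imKO, where alternatives called up to 1970. At an unadjusted p under 0.05 there were 3 members in ABC-imKO (Kcnk12, Hvcn1 and Trpv2) and 0 in WT, against 16.6% and 14.3% of all genes. Kcnk12 differed by -1.78 ± 0.62 in the samples labelled ABC-imKO (adjusted p = 0.164) and by -1.11 ± 0.70 in WT (adjusted p = 0.472). Groups did not overlap for 2 members in ABC-imKO, against 19.9% of all genes, and for 6 members in WT, against 33.3% of all genes, where AIBP has only 2 samples.

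ABC-imKO against WT gave no member past edgeR's test in any of the 3 states, where 0.0%, 0.044% and 0.00489% of all genes passed in cisplatin AIBP, cisplatin saline and naive. The largest differences were in cisplatin saline. Trpv4 stood at 43.3, 26.9 and 32 CPM in ABC-imKO cisplatin saline, against 3.10, 7.38 and 7.11 CPM in WT cisplatin saline (2.54 ± 0.56, adjusted p = 0.175). Every ABC-imKO sample was above every WT sample. Kcnk12 was lower in each ABC-imKO sample than in any WT sample (-2.80 ± 0.64, adjusted p = 0.191), by the values above. DESeq2 called both genes in cisplatin saline and limma-voom called neither. The 0.044% above is the share in the main edgeR fit, with 9 genes called, and alternatives called up to 401 of all genes. In cisplatin saline 5 members had an unadjusted p under 0.05 (8.98% of all genes did) and did not overlap (12.5% of all genes did not). The other members were Kcnj2 (-1.90 ± 0.68), Kcnn4 (-1.49 ± 0.48) and Kcnk6 (0.45 ± 0.20). In naive mice 2 members had an unadjusted p under 0.05 (5.96% of all genes), Kcnk6 and Trpv4, and 2 did not overlap (9.63% of all genes). In cisplatin AIBP 2 had such a p (6.35% of all genes), Kcnk13 and Kcnn4, and 4 did not overlap (22.2% of all genes). DESeq2 and limma-voom called none in these states.

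Between the genotypes 5 members had one sign in all 3 states: Kcnk13, Kcnk12 and Kcnn4 were on the lower side in ABC-imKO, and Kcnk6 and Kcna3 on the higher side. How many of all genes kept one sign was not counted, so no genotype trend is read from this. None of the differences passed, and some were small, such as Kcna3 (0.11 ± 0.62) and Kcnk13 (-0.16 ± 0.29) in cisplatin saline. The cisplatin AIBP state also rests on the samples whose label is in doubt. The values of Kcnn4 and Kcnk6 are given here. Kcnn4 stood at 7.94, 16.8 and 12.6 CPM in the samples labelled ABC-imKO cisplatin AIBP, against 28.6 and 28.4 CPM in WT (-1.20 ± 0.51, adjusted p = 0.732), and at 6.65, 14.8 and 9.60 CPM in ABC-imKO cisplatin saline, against 30.3, 39.1 and 17.8 CPM in WT (adjusted p = 0.41). In naive mice its values overlapped (-0.91 ± 0.47, adjusted p = 0.789). Kcnk6 lay at 98.5 to 121 CPM in ABC-imKO cisplatin saline, against 70.4 to 96.9 CPM in WT (adjusted p = 0.547), and at 87.3 to 114 CPM in ABC-imKO naive, against 70.0 to 74.7 CPM in WT (0.47 ± 0.20, adjusted p = 0.789). With AIBP its groups overlapped (0.36 ± 0.23, adjusted p = 0.756). None of these 6 differences passed, and they were not tested together.

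The difference between genotypes in the cisplatin saline response was tested directly. No member passed with edgeR, where 0.0% of all genes did, and 3 had an unadjusted p under 0.05 (7.63% of all genes did). Of the members DESeq2 called Trpv4 alone, and limma-voom called none. The 0.0% is the share in the main edgeR fit, and alternatives called up to 187 of all genes. For Trpv4 the ABC-imKO response exceeded the WT response by 3.77 ± 0.78 (log2), with an unadjusted p of 0.00023 and an adjusted p of 0.374. For Kcnk12 the difference was -2.54 ± 0.86 (adjusted p = 0.607) and for Kcnj2 it was -2.05 ± 0.93 (adjusted p = 0.64). That Kcnk12, Kcnj2 and Trpv4 passed in ABC-imKO and not in WT does not by itself show that the genotypes differed.

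Other channel genes were read from lists. Of 71 other potassium pore genes, 30 were tested and 2 changed, both lower in ABC-imKO cisplatin saline than in naive. In that comparison 4.41% of all genes passed. Kcnd1, a transient voltage-gated channel, averaged 29.8 ± 3.9 CPM, against 83.4 ± 3.6 CPM (-1.48 ± 0.30, adjusted p = 0.011). Kcnma1, the large-conductance calcium-activated channel, averaged 3.76 ± 1.21 CPM, against 20.5 ± 7.8 CPM (-2.45 ± 0.56, adjusted p = 0.023). None of 7 tested potassium auxiliary subunits, 11 tested TRP, mucolipin and polycystin genes, 20 tested calcium channel genes and 10 inflammasome and interleukin-1 genes passed in any of the 11 comparisons. In cisplatin saline against naive, 1, 3, 4 and 3 of them had an unadjusted p under 0.05 in ABC-imKO, beside 18.1% of all genes. In WT the counts were 0, 5, 2 and 5, beside 17.6% of all genes. Of 20 tested chloride, volume and large-pore channels, the chloride-proton exchanger gene Clcn4 was lower after cisplatin and saline in ABC-imKO (-0.78 ± 0.19, adjusted p = 0.0273) and in WT (-0.73 ± 0.19, adjusted p = 0.0485). The shares of all genes that passed there were 4.41% in ABC-imKO and 2.91% in WT. The endosomal sodium-proton exchanger gene Slc9a9 averaged 63.0 ± 19.1 CPM in ABC-imKO cisplatin saline, against 169.2 ± 33 CPM in naive (-1.43 ± 0.34, adjusted p = 0.0292).

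Likeness of pattern was described by Pearson r of log2 CPM over the 17 samples, which share the group differences, among 8248 genes. Kcnk12 was most like Cadm1 (r = 0.937), Slc2a5 (0.936) and the microglial marker Tmem119 (0.933). Hvcn1 followed Rasgrp3 (0.921), Sparc (0.905), also a microglial marker, and Klhdc8b (0.902). The best matches of the others were weaker: Tmco1 for Kcnk13 (0.883), Col27a1 for Kcnj2 (0.876), Rab11fip5 for Trpv4 (0.873), Ick for Trpv2 (0.87), Dpp3 for Kcna3 (0.868), Ccnd3 for Kcnn4 (0.857), St5 for Kcnk6 (0.855) and Smpd2 for Trpm2 (0.839). Among the members themselves, Kcnk12 and Hvcn1 ran together most closely (r = 0.81, and 0.774 after group means were removed). Kcnk12 and Kcnj2 gave 0.674 over all samples and 0.087 within groups, so their likeness lay between groups.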

How the data were processed

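Lumbar spinal microglia were collected by flow cytometry into lysis buffer, and oligo(dT)-primed, PCR-amplified RNA was made into Nextera XT libraries, per the labels' protocols. The submitters' processing notes name bcl2fastq, FastQC 0.11.17, MultiQC 1.7, STAR 2.6.0a, DESeq2 and build GRCm38. Neither a counting tool nor a strand setting is named there. The authors deposited raw counts per gene for 102 runs. They also deposited a normalized table whose values (signal) are those counts divided by 1 size factor per run (0.437 to 1.62). That table was used to choose the genes and as an alternative for ratios of group means.

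Raw counts of the 6 runs of each numbered sample (3 technical libraries on 2 lanes) were summed, giving 17 samples. Libraries held 9.04 to 30.4 M counts. edgeR 4.0.16 in R 4.3.3 fitted a group-means model over all 17 samples (TMM factors 0.885 to 1.11, filterByExpr by group, 20461 genes tested, 11 residual degrees of freedom) with 11 two-sided contrasts, Benjamini-Hochberg adjustment over all genes and a threshold of 0.05. The common biological coefficient of variation was 0.922. On data simulated for WT cisplatin saline against naive over 19571 genes, 43.1% of genes changed by a log2 fold of 2 and 69.4% of those changed by 3 were recovered, with 2 false calls. The SE is the size of the log2 fold change divided by the square root of the quasi-likelihood F statistic. Intervals are 95% by the normal approximation from that SE, and are narrower than the test implies. For Trpv2 in ABC-imKO cisplatin saline over naive the interval ran from -0.96 to -0.02, where edgeR's test gave an unadjusted p of 0.0584.

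Alternatives were other scalings, filters, DESeq2 1.42, limma-voom (limma 3.58.1), the groups of a contrast alone, each sample or technical replicate left out, and replicate blocks. Leaving out the 3 samples labelled ABC-imKO cisplatin AIBP was added after the data were seen. The members and lists were chosen with earlier results of these data known. Named genes are the 10 members, genes of the lists past the threshold (up to 6 a list), Abca1 and Abcg1, and the 3 genes most like each member; markers and Tctn1 are named beside results they touch. Some list genes are not reported here. Exon lengths and positions are from GENCODE release M21 on GRCm38.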

Additional observations from a re-analysis of the deposited data

Results flagged for a closer look

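Trpv4 was singled out because its response to cisplatin and saline ran in opposite directions in the genotypes: all 3 ABC-imKO samples lay above their naive samples and all 3 WT samples lay below theirs. The difference between the responses was tested and was 3.77 on the log2 scale (SE 0.78, unadjusted p = 0.00023, adjusted p = 0.374 with edgeR). Over the alternatives it kept its sign, and DESeq2 alone put it past the threshold (adjusted p = 0.000265).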

How the results depend on the processing

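With the 18 alternatives for cisplatin saline over naive in ABC-imKO, the fold changes of the 3 called genes kept their sign. Kcnk12 was past the threshold in 16 (log2 fold change -4.97 to -2.97, adjusted p 2.45e-07 to 0.0588), Trpv4 in 11 (1.94 to 4.01, 0.000218 to 0.25) and Kcnj2 in 9 (-3.77 to -1.41, 0.000799 to 0.264). The count of 3 became 1 (Kcnk12) with the groups of the contrast alone. It lay between 0 and 3 when 1 sample or technical replicate was left out: 0 without ABC-imKO cisplatin saline 5, and 1 without ABC-imKO naive 1 or 2, ABC-imKO cisplatin saline 4, or technical replicate 2 or 3. It stayed at 3 without the samples labelled ABC-imKO cisplatin AIBP, an alternative chosen after seeing the data.

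The count of 0 for cisplatin saline over naive in WT lay between 0 and 1 when 1 sample was left out (Hvcn1, without WT cisplatin saline 4). For cisplatin AIBP over naive in ABC-imKO DESeq2 gave 1. For ABC-imKO over WT in cisplatin saline DESeq2 gave 2, and no filter on low counts gave 1 (Kcnk12). For the genotype difference in the cisplatin saline response DESeq2 gave 1. Technical replicate numbers did not pair libraries (mean r of deviations 0.000972). The replicate block on those numbers, in limma-voom over single libraries, gave 4 for cisplatin saline over naive in ABC-imKO, 1 in WT, 2 for cisplatin AIBP over naive in ABC-imKO and 1 for ABC-imKO over WT in cisplatin saline. That fit takes 3 libraries a sample as its units. No share over all genes is given beside the counts from DESeq2 or the block. For cisplatin saline over naive in ABC-imKO, alternatives called up to 2464 of all genes, against 903 in the main fit. On summed samples limma-voom gave 3 in ABC-imKO, without Kcnj2 (adjusted p 0.136 on sums, 0.00663 on libraries), and 0 in the others, with WT Hvcn1 at 0.117 on sums and 0.00278 on libraries. Sample numbers shared between genotypes did not pair samples either (r -0.154 to 0.193), and with the sample number as a replicate block the 3 genotype comparisons gave 0 members each.

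Of 2100 fold changes of members under alternatives, 18 lost and 13 gained a call, and 135 that were past the threshold in neither fit turned sign; the cause was not tested. Genes called among all tested moved from 595 to between 149 and 853 in WT and from 903 to between 366 and 788 in ABC-imKO (cisplatin saline over naive) when 1 sample or technical replicate was left out. For cisplatin AIBP over naive they moved from 256 to between 1 and 214 in WT and from 549 to between 142 and 823 in ABC-imKO, and for ABC-imKO over WT in cisplatin saline from 9 to between 1 and 32. Groups of 2 or 3 and counts as low as 119 a sample (Trpv4) limit what could be detected.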
